A study of Mus musculus with 4 samples.

Results

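Cd55, Cd59a, Cd46 and Cr1l encode membrane proteins that protect a cell from complement attack. They were taken as the probe sets that the platform annotation assigns to these 4 symbols, which gave 4 probe sets, 1 for each gene, of 33793 probe sets and 22180 genes in all. The genes were picked for their levels on the same 4 arrays, so those levels and the differences between them are given as a description and not as a test. RNA was measured on Affymetrix arrays in 4 groups of mast cells from BALB/c mice, with 1 array for each group. The first group was mucosal mast cells of the small intestine, taken from the lamina propria of naive mice and sorted as positive for FcεRI and c-Kit. The others were bone marrow-derived mast cells (BMMCs), a culture model grown from marrow over 3 to 4 weeks with 10 ng/ml of interleukin-3 and 10 ng/ml of stem cell factor. One BMMC group then spent 6 days with Chinese hamster ovary (CHO) cells carrying the mouse Notch ligand Dll1 and was selected on c-Kit beads. Another spent 6 days with TGF-β1 at 5 ng/ml, and the control BMMCs spent 6 days in normal medium. The Dll1 group alone had hamster cells and beads, and the intestinal group alone came from tissue and a flow sorter, so these cannot be told apart from the groups. How many mice or cultures stood behind an array is not given in the sources used here.

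Complement is a cascade of plasma proteins in which convertases cleave C3 and C5, and the late components then assemble into a membrane attack complex that pierces cells. Host cells carry regulators that act at different steps. Cd55 (decay-accelerating factor) takes convertases apart and is held in the membrane by a glycosylphosphatidylinositol (GPI) anchor. Cr1l, also called Crry, is the broadly expressed mouse regulator that both takes convertases apart and serves as a cofactor for cleavage of C3b. Cd46 (membrane cofactor protein) is a cofactor for the same cleavage and in mice is known mainly from testis and sperm. Cd59a, also GPI-anchored, acts last and blocks assembly of the membrane attack complex.

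Values are log2 intensities and are compared between arrays within a gene, never between genes. Sums over marker lists add linear intensities of different probe sets, so bright probe sets and background weigh on them. Background was taken from 1440 probe sets of genes for smell, pheromone and bitter taste receptors, whose 95th percentile on an array served as its limit. That was 5.11 on the intestinal array, 5.12 on the Dll1 array, 5.20 on the TGF-β1 array and 5.11 on the control array. A gene was called different between 2 arrays when it exceeded the limit on 1 or both of them and the difference reached 2-fold. Values under the limit were first replaced by the limit. Where 1 of the 2 values lay under the limit, the fold is a bound and is written "at least". A single array for each group leaves no error between samples, so no p-value is given. As a gauge of technical spread, the standard deviation between the differences of 2 probe sets of one gene was 0.48 for intestinal minus control, 0.34 for Dll1 minus control and 0.24 for TGF-β1 minus control, over 322, 332 and 317 genes. It covers no variation between animals or cultures, and none of the 4 regulators had a second probe set.

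The labelled cell type was checked first. Kit, Fcer1a, Ms4a2 and the mast cell protease Cpa3 were above background on every array, between 9.98 for Ms4a2 in intestinal mast cells and 13.11 for Cpa3 with Dll1. Of 15 mast cell markers measured, 15 were above the limit in intestinal mast cells, 15 with Dll1, 14 with TGF-β1 and 13 in control BMMCs. Their levels were not alike in all groups, and those named next were chosen after their values were seen. Of the 15, 3 were at least 2-fold higher and 4 lower in intestinal mast cells than in control BMMCs, 4 were higher and none lower with Dll1, and 3 were higher and none lower with TGF-β1. In intestinal mast cells the protease Mcpt2 was 95.8-fold higher than in control BMMCs, and its relatives Mcpt4 and Mcpt1 were higher by at least 39.3-fold and at least 196-fold. The proteases Tpsb2 (40.6-fold), Cma1 (31.1-fold) and Tpsab1 (7.93-fold) and the amine transporter Slc18a2 (3.41-fold) were lower there. These are bulk samples, in which fewer cells that express a gene and less of its RNA in each cell cannot be told apart.

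Cd55 was high in the 3 BMMC groups and at background in intestinal mast cells. Its log2 value was 4.76 in intestinal mast cells, 8.71 in BMMCs with Dll1, 9.19 in BMMCs with TGF-β1 and 9.73 in control BMMCs. The intestinal value lay under the limit, above 88.7% of the receptor probe sets that define background, while the BMMC values stood 3.59 (Dll1), 3.99 (TGF-β1) and 4.62 (control) above their limits. Cd55 was at least 24.6-fold lower in intestinal mast cells than in control BMMCs. It was at least 12.1-fold lower in intestinal mast cells than in BMMCs with Dll1, and at least 16.9-fold lower than in BMMCs with TGF-β1. These bounds depend on the limit, and at the 99th percentile of the receptor probe sets they were at least 14.0-fold, 6.89-fold and 9.64-fold in the same order. The median range over the 4 arrays of 13355 genes above background somewhere was 0.46, and that of Cd55 was at least 4.62.

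Between the BMMC groups the Cd55 differences were small beside that. With Dll1 it was 2.03-fold lower than in control BMMCs, a log2 difference of -1.02 that barely passed the rule. After quantile normalization of the 4 arrays the difference was -0.99 and was no longer called. With TGF-β1 it was 1.45-fold lower than in control BMMCs (-0.54), and with Dll1 1.40-fold lower than with TGF-β1 (-0.48), neither of which passed 2-fold. The intestinal array is the one that stands apart for this gene.

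Cd55 lies on mouse chromosome 1 next to Cd55b, a paralog that encodes a related regulator and is known for its testis expression. Cd55b was below background on all 4 arrays, at 4.34 in intestinal mast cells, 4.38 with Dll1, 4.46 with TGF-β1 and 4.52 in control BMMCs. The bases before the starts of both genes are shown because the pair is so alike in sequence while Cd55 alone was above background. They are the 250 bases before the start in RefSeq on GRCm38.p6, chr1:130462745-130462994 and chr1:130423044-130423293, both on the minus strand, written 5′ to 3′. Capitals mark matches, on either strand, to GATAA (bound by GATA factors), CANNTG (the E-box), TGGGAA (bound by the Notch partner RBPJ), CAGAC (bound by SMAD proteins) and CCGCCC (the GC box).
Cd55: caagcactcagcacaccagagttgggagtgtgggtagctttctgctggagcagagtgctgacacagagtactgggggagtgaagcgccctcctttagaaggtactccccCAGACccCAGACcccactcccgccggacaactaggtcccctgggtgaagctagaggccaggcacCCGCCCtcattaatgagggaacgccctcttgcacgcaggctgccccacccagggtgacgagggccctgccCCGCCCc
Cd55b: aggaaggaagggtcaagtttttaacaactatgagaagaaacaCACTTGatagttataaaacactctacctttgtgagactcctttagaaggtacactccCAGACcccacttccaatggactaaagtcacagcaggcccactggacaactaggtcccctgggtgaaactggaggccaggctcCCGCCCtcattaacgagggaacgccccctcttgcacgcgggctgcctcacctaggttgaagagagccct
Aligned end to end, 169 of 227 paired bases were identical (74.4%), and the longest run shared without a change was 24 bases. The Cd55 stretch held 2 CAGAC and 2 CCGCCC matches, and the Cd55b stretch held 1 of each and 1 CANNTG. Neither held GATAA or TGGGAA, which says only that these letters are not in this window. Among 32851 RefSeq promoters cut the same way, 42.2% held CAGAC, 32.7% CCGCCC, 66.2% CANNTG, 22.6% GATAA and 21.6% TGGGAA. The GC content was 64% before Cd55 and 51.6% before Cd55b, against a median of 52.4% over those promoters.

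**Figure D1:**
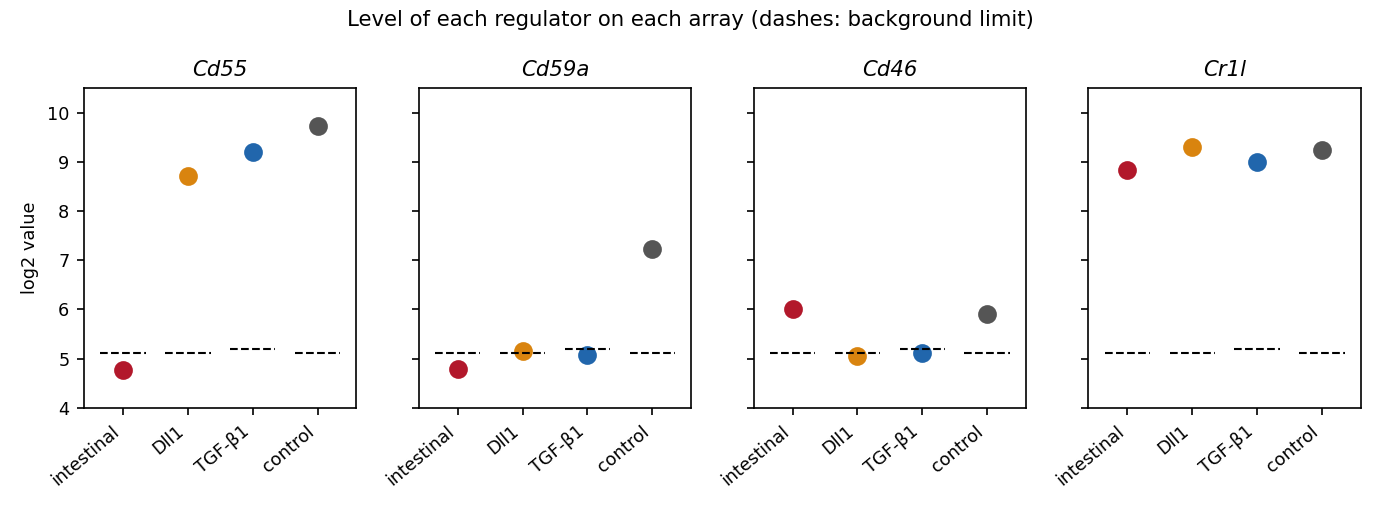
Log2 value of Cd55, Cd59a, Cd46 and Cr1l (vertical axis) on the intestinal, Dll1, TGF-β1 and control arrays (horizontal axis), with 1 point for each array and a dash at its background limit. Cd55 is under the limit on the intestinal array alone, at 4.76, Cd59a is clearly above it on the control array alone, at 7.24, and Cr1l stays between 8.84 and 9.31.

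Cd59a was clearly above background in control BMMCs alone. Its log2 value was 4.79 in intestinal mast cells, 5.15 with Dll1, 5.08 with TGF-β1 and 7.24 in control BMMCs. The intestinal and TGF-β1 values were under their limits, and the Dll1 value was 0.03 above its limit. Cd59a was at least 4.36-fold lower in intestinal mast cells than in control BMMCs, 4.25-fold lower with Dll1, where the value is at the edge of background, and at least 4.09-fold lower with TGF-β1. With the limit at the 99th percentile all 3 were bounds, at least 2.48-fold in intestinal mast cells, 2.36-fold with Dll1 and 2.64-fold with TGF-β1. These 3 comparisons share the control array, so 1 high value there enters all of them.

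As measured, without the limit, the log2 difference of Cd59a from control BMMCs was -2.45 in intestinal mast cells, -2.09 with Dll1 and -2.16 with TGF-β1. Between the intestinal, Dll1 and TGF-β1 arrays Cd59a differed by no more than 0.36 on the measured log2 scale, and with values this near the limits no order among them can be read.

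Cd59a lies on chromosome 2 beside Cd59b, a paralog with the same kind of product. Cd59b stayed near background, at 5.21 in intestinal mast cells, 5.40 with Dll1, 5.33 with TGF-β1 and 5.62 in control BMMCs. All 4 values were above their limits, by 0.09 to 0.51, and no comparison reached 2-fold. Its log2 difference from control was -0.41 in intestinal mast cells, -0.22 with Dll1 and -0.29 with TGF-β1. Whether the probes of Cd59a and Cd59b, or those of Cd55 and Cd55b, also read the paralog was not tested. The bases before the start of Cd59a are given for comparison with those of Cd55, since both genes were lower than in control BMMCs on the intestinal and Dll1 arrays. They are chr2:104095551-104095800 on the plus strand in RefSeq on GRCm38.p6, with capitals for the same letters as above.
Cd59a: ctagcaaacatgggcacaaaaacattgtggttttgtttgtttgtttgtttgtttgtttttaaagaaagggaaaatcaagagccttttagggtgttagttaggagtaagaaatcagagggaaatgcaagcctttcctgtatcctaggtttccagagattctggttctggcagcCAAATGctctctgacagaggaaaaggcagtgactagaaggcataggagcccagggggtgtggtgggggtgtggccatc
The only match was 1 CANNTG, and the stretch had no CpG and a GC content of 44.8%, whereas that of Cd55 had 8 CpGs. Of 205 paired bases in an alignment with the same stretch of Cd59b, 131 were identical (63.9%), and the longest shared run was 8 bases. Aligned in the same way, Cd55 and Cd59a had 124 of 233 paired bases identical (53.2%) and a longest run of 7. Cd46 and Cr1l had 123 of 221 (55.7%) and a run of 7. A share in the fifties is thus reached here by genes that are not a paralog pair of this kind.

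Cr1l was far above background on every array and differed little between them. Its log2 value was 8.84 in intestinal mast cells, 9.31 with Dll1, 8.996 with TGF-β1 and 9.25 in control BMMCs. The widest gap was between the intestinal and Dll1 arrays, where Cr1l was 1.38-fold lower in intestinal mast cells (-0.47), and none of the 6 comparisons reached 2-fold. Its log2 difference from control BMMCs was -0.41 in intestinal mast cells, -0.26 with TGF-β1 and 0.05 with Dll1, a sign that turned to -0.03 when array medians were subtracted. The intestinal difference was smaller than the spread between probe sets of one gene, and the TGF-β1 one was close to it. Of 13355 genes above background somewhere, 49.5% ranged over the arrays at least as widely as Cr1l.

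Cd46 was close to background everywhere. Its log2 value was 6.02 in intestinal mast cells, 5.06 with Dll1, 5.12 with TGF-β1 and 5.91 in control BMMCs. The intestinal and control values were 0.91 and 0.80 above their limits, and the Dll1 and TGF-β1 values were just under theirs. Cd46 was at least 1.73-fold lower with Dll1 and at least 1.64-fold lower with TGF-β1 than in control BMMCs, and differed by 0.10 between intestinal mast cells and control BMMCs. It was at least 1.86-fold higher in intestinal mast cells than with Dll1 and at least 1.76-fold higher than with TGF-β1. None of these passed 2-fold. With 16 taken off every linear intensity, which widens differences of dim genes, the log2 difference was -1.23 for Dll1 minus control and -1.09 for TGF-β1 minus control, both past 2-fold. With a limit at the 99th percentile Cd46 was below background on the Dll1, TGF-β1 and control arrays, so neither comparison gave a value.

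Counted together, 2 of the 4 regulators (Cd55 and Cd59a) were at least 2-fold lower in intestinal mast cells than in control BMMCs and none was higher, where 6.73% of 12743 genes tested were lower and 4.47% higher. With Dll1 the same 2 were lower than in control BMMCs and none was higher, where 1.78% of 12806 genes tested were lower and 1.63% higher. With array medians subtracted, 318 genes were lower and 175 higher in that comparison, in place of 228 lower and 209 higher. With TGF-β1, Cd59a was lower than in control BMMCs and none was higher, where 0.887% of 12063 were lower and 0.506% higher. The median log2 difference over the 4 regulators was -1.27 for intestinal mast cells, -0.91 with Dll1 and -0.62 with TGF-β1, against -0.0041, 0.0048 and -0.015 over all genes tested. The members were chosen with these values known, so nothing is read from these counts.

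The other comparisons turned on Cd55. It was the 1 regulator called between intestinal mast cells and BMMCs with Dll1, where 4.13% of 13053 genes tested were lower and 3.56% higher in intestinal mast cells. It was also the 1 called between intestinal mast cells and BMMCs with TGF-β1, where 4.55% of 12565 were lower and 4.05% higher. Between Dll1 and TGF-β1 none was called of the 3 tested, where 1.89% of 12690 genes were lower and 2.19% higher with Dll1. Cr1l had its largest positive difference there, 0.31.

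**Figure D2:**
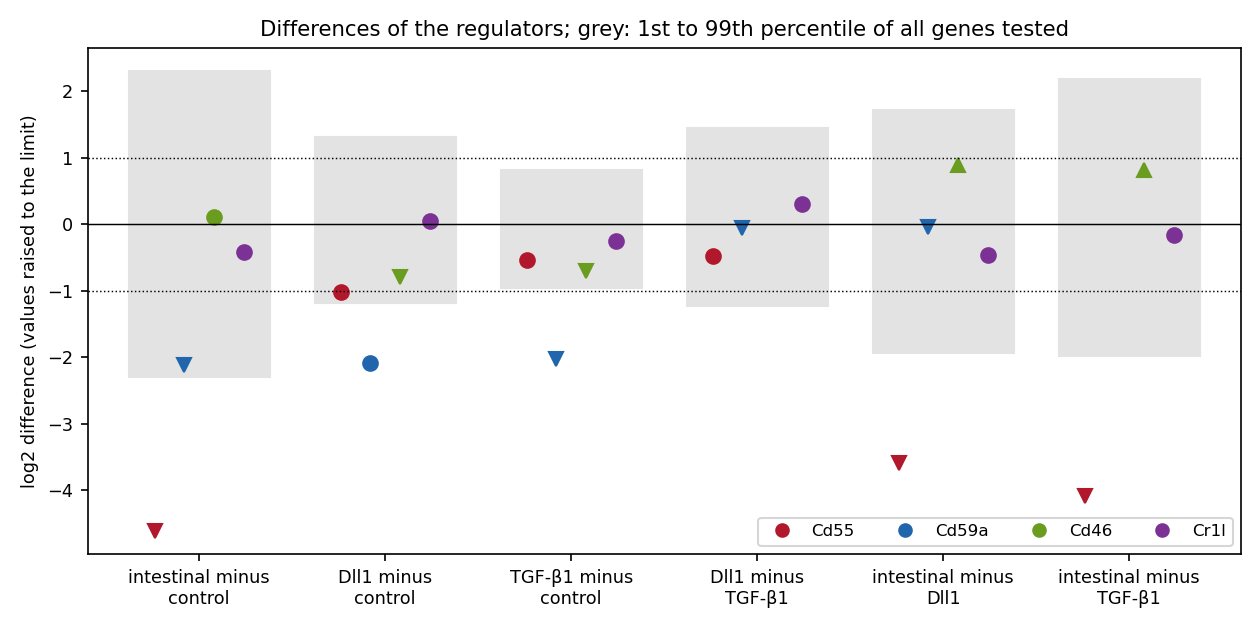
Log2 difference of each regulator in the 6 comparisons (vertical axis, values under the limit raised to it), with grey bars from the 1st to the 99th percentile of all genes tested and dotted lines at 2-fold. Triangles mark differences with 1 value under its limit and point by the sign of the raised difference, and circles are differences measured on both arrays. For Cd59a in Dll1 minus TGF-β1 the raised difference is -0.06 and the measured one 0.07, so that triangle gives no direction. Cd55 lies below the grey bar in the 3 comparisons with intestinal mast cells, and Cd59a below it with Dll1 and with TGF-β1 against control.

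Each of the 4 regulators has another complement gene close by, so the neighbouring genes were read as well. Around Cd55 the measured neighbours Cd55b, the sperm protein gene Zp3r and C4bp, which encodes a plasma inhibitor of the C4b-dependent convertase, were below background on all 4 arrays. The antisense transcript Cd55os next to Cd55 had no probe set of its own symbol. Cd46 and Cr1l are direct neighbours on chromosome 1, and Cr2, the complement receptor gene of B cells beside them, was below background on all arrays, at 4.85 in intestinal mast cells, 4.60 with Dll1, 4.52 with TGF-β1 and 4.53 in control BMMCs. Near Cd59a, the ubiquitin ligase gene Fbxo3 was above background everywhere and was 7.11 in intestinal mast cells, 7.82 with Dll1, 7.99 with TGF-β1 and 8.02 in control BMMCs. No measured neighbour of any of the 4 regulators differed by 2-fold from control BMMCs.

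**Figure D3:**
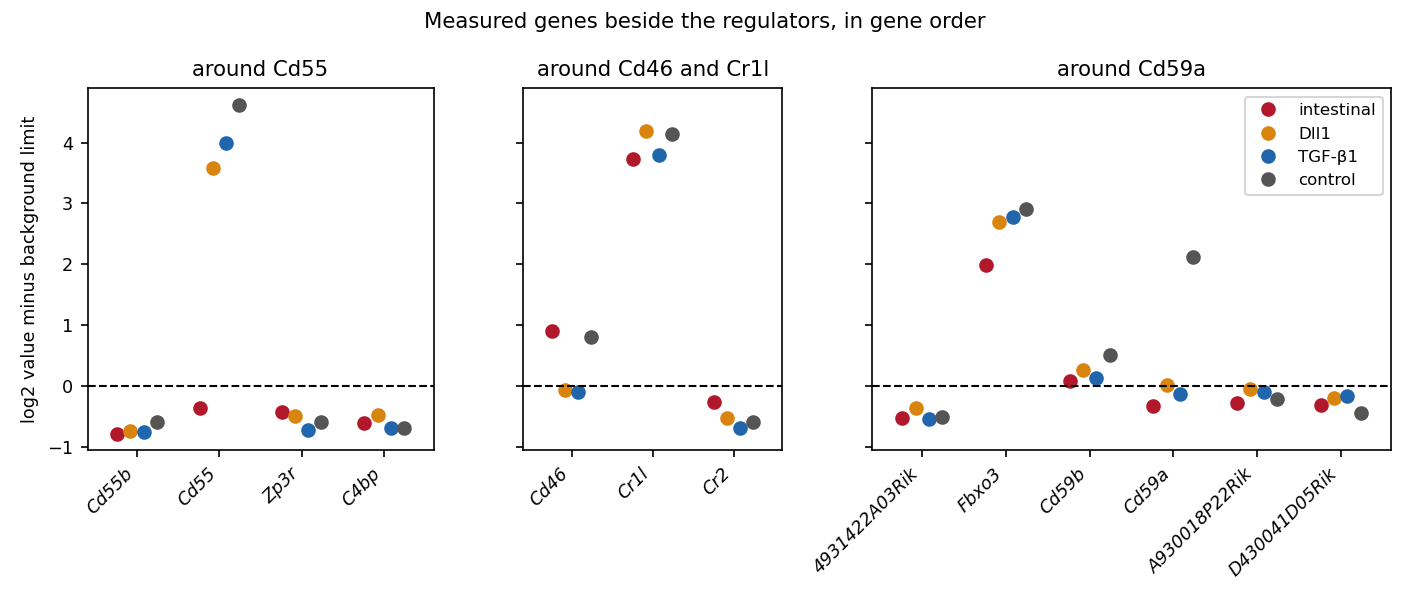
Log2 value minus the background limit (vertical axis) for the measured genes around Cd55, Cd46 with Cr1l, and Cd59a, in gene order, with 1 point for each array. Cd55, Cr1l and Fbxo3 rise well above the dashed line at 0 on several arrays, and Cd55b, Zp3r, C4bp and Cr2 stay below it on all 4.

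Other complement genes were read from lists of regulators, components and receptors. Of 17 other regulators measured, 5 were above background on at least 1 array (Cd59b, Clu, Thbd, Susd4 and Sez6), and none was called against control BMMCs. Only 4 were tested in intestinal mast cells, 5 with Dll1 and 4 with TGF-β1. Of all genes tested, 6.73% were lower and 4.47% higher in intestinal mast cells. With Dll1 these shares were 1.78% and 1.63%, and with TGF-β1 0.887% and 0.506%. At such shares no call among so few genes is not read as a result. Clu (clusterin), a soluble inhibitor of the attack complex, was above its limit with Dll1 alone, at 5.14, against 4.81 in control BMMCs. Thbd (thrombomodulin) was 5.25 in intestinal mast cells, 5.58 with Dll1, 5.16 with TGF-β1 and 5.43 in control BMMCs. The complement-repeat proteins Susd4 and Sez6 were between 5.43 and 5.90 on all arrays. The median log2 difference from control among those tested was -0.13 in intestinal mast cells, 0.15 with Dll1 and -0.15 with TGF-β1.

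Of 26 components measured, 10 were above background on at least 1 array. Against control BMMCs, 2 of 9 tested were higher and 1 lower in intestinal mast cells. With Dll1 none of 8 was called, and with TGF-β1 1 of 6 was lower. The shares over all genes are those given for the other regulators. Cfp (properdin), which stabilises the alternative pathway convertase, was 5.71 in intestinal mast cells, 7.67 with Dll1, 7.05 with TGF-β1 and 8.14 in control BMMCs. It was 5.40-fold lower in intestinal mast cells and 2.13-fold lower with TGF-β1 than in control BMMCs, and the Dll1 difference did not reach 2-fold. C1qa and C1qb, chains of the recognition protein of the classical pathway, were higher in intestinal mast cells than in control BMMCs, by 3.62-fold and by at least 4.28-fold. C1qa was 7.24 there and between 5.25 and 5.38 in the BMMC groups. C1qc was below background on all 4 arrays, at 4.71 in intestinal mast cells and 4.57 in control BMMCs. The remaining 7 above background somewhere (C1rb, C4a, C8g, Cfb, Fcna, Fcnb and Colec11) were not called against control BMMCs in any group, with values between 4.61 and 6.06. The list median of those tested was 0.04 for intestinal mast cells, -0.04 with Dll1 and -0.19 with TGF-β1.

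Of 7 receptors for complement fragments measured, 6 were above background somewhere and C5ar1, a receptor for C5a, was not. C3ar1, the receptor for the anaphylatoxin C3a, was 5.74 in intestinal mast cells, 8.18 with Dll1, 8.30 with TGF-β1 and 8.05 in control BMMCs. Like Cd55 it was high in every BMMC group and low in intestinal mast cells, where it was 4.96-fold lower than in control BMMCs. Cd93, once described as a C1q receptor, was 4.42-fold lower in intestinal mast cells than in control BMMCs. Itgax and Itgam, which with Itgb2 form the complement receptors CD11c/CD18 and CD11b/CD18, were at least 67.6-fold and 3.23-fold higher in intestinal mast cells than in control BMMCs. Their partner Itgb2 was not higher there, at 6.53 in intestinal mast cells and 7.22 in control BMMCs, a difference short of 2-fold. With TGF-β1 Itgb2 was 2.37-fold lower than in control BMMCs. C5ar2, the other C5a receptor, ranged from 5.39 in intestinal mast cells to 6.25 with Dll1 and was not called against control BMMCs.

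**Figure D4:**
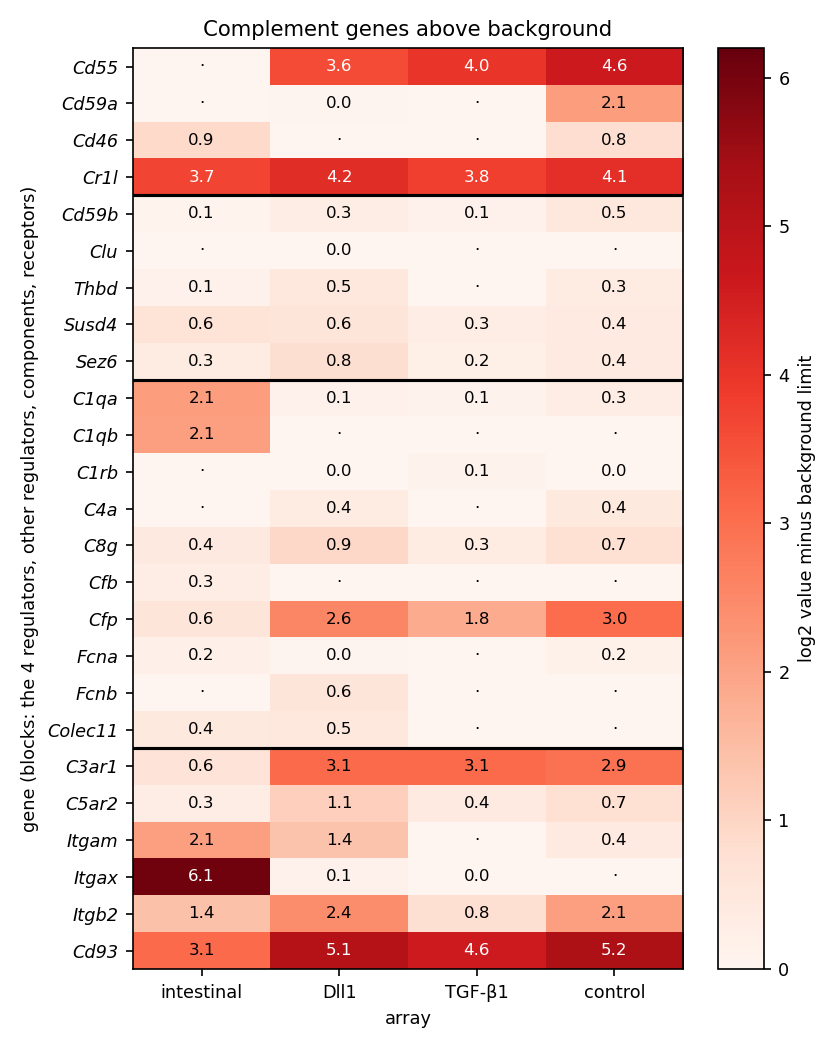
Log2 value minus the background limit (colour scale) for the 4 regulators and the other complement regulators, components and receptors above background on at least 1 array (rows), on the intestinal, Dll1, TGF-β1 and control arrays (columns). A dot marks a value under the limit, the blocks are separated by lines, and C3ar1, Cd93 and Cfp share with Cd55 a lower intestinal value than in any BMMC group.

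Since Cd55 and Cd59a are held by GPI anchors, other GPI-anchored proteins and the anchor pathway were read too. Of 45 GPI-anchored proteins measured, 26 could be compared between intestinal mast cells and control BMMCs, where 4 were at least 2-fold higher and 3 lower, with a median log2 difference of 0.01. Over all genes tested 4.47% were higher and 6.73% lower. Plaur, the urokinase receptor, was 6.23-fold higher, Cd48, a SLAM family ligand, 3.24-fold higher, Ly6c2 2.65-fold lower and Gfra2, a coreceptor for neurturin, at least 2.46-fold lower in intestinal mast cells. With Dll1, 4 of 27 were higher and 2 lower than in control BMMCs, with a median of 0.19, where 1.63% and 1.78% of all genes were. Gfra2 was 4.85-fold, Cd48 2.64-fold and Gpc1, a glypican, 2.28-fold higher, and Ly6c2 was 2.14-fold lower. With TGF-β1 none of 22 was higher and 3 were lower, with a median of -0.04, where 0.506% and 0.887% of all genes were. Those were Gfra2 (at least 2.31-fold), the Nogo receptor gene Rtn4r (2.25-fold) and Ly6g (2.14-fold), and Gpc1 differed by 0.83.

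Few genes that make and attach the anchor were called, but few of all genes were, so these counts are not read as a result. Of 25 measured, 24 were above background on every array. In intestinal mast cells none was at least 2-fold higher and Pigz, a mannosyltransferase, was 2.02-fold lower than in control BMMCs, with differences of -0.72 for Pigp, -0.71 for Pigk and -0.70 for Pigm. The list median was -0.20. Of all genes tested in that comparison, 4.47% were higher and 6.73% lower. With Dll1 none of 24 tested was called, where 1.63% of all genes were higher and 1.78% lower. The median was -0.16, and the largest differences were -0.72 for Pigm, 0.68 for Pigz, -0.49 for Pign and -0.44 for Pigv. With TGF-β1 none of 24 tested was called, where 0.506% of all genes were higher and 0.887% lower. The median was -0.09, and the largest differences were -0.59 for Pigz, -0.55 for Pign, 0.52 for Gpaa1 and -0.52 for Pigh.

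Markers of other cells moved with the intestinal and Dll1 arrays. Of 13 markers of T and innate lymphoid cells measured, 11 were above background in intestinal mast cells and 4 in control BMMCs, with summed linear levels of 6401 and 3711, or 2905 and 376 without Gzmb, its brightest gene. For 16 markers of macrophages and dendritic cells the numbers were 12 and 7, with sums of 4598 and 1767, or 2262 and 1738 without Itgax. That list also holds C1qa and C1qb, and its dendritic cell gene Cd209a was 5.98-fold lower in intestinal mast cells. For 20 markers of intestinal epithelium they were 14 and 6, with sums of 2319 and 634, or 1209 and 562 without Cdh1. The granzyme gene Gzma was at least 37.2-fold higher in intestinal mast cells than in control BMMCs, and Cdh1 (E-cadherin) was 15.5-fold higher. Both also rose in a culture. Gzma was 7.92 with Dll1 and 4.62 in control BMMCs, and Cdh1 was 7.57 with TGF-β1 and 6.16 in control BMMCs. Cd3g was 8.84 in intestinal mast cells and below background in the BMMC groups. Of the epithelial list, Epcam, Krt19, Vil1, Lgr5, Cldn7 and Sis were below background on every array. For 8 markers of B and plasma cells the numbers were 7 and 3, with sums of 2097 and 285, or 368 and 214 without Ighm. With Dll1, eosinophil markers summed to 4273 against 259 in control BMMCs, or 1479 against 217 without Prg2. Of the 5 eosinophil markers tested there, 4 were at least 2-fold higher, but Ccr3 was 5.58 with Dll1 and 5.93 in control BMMCs. Neither Siglecf (5.01 with Dll1, 4.82 in control BMMCs) nor Il5ra (4.92 in each) reached the limit. Neutrophil markers summed to 2140 with Dll1 against 532 in control BMMCs, or 1678 against 508 without S100a8. Of the 14 neutrophil markers tested there, 6 were at least 2-fold higher and 1 lower, where 1.63% and 1.78% of all genes were. The lower one was Ly6g, at 5.35 with Dll1 and 6.40 in control BMMCs. Fibroblast and feeder markers summed to 1847 against 1222, or 1052 against 574 without Vim. That list holds the gene Dll1 itself, whose mouse form the hamster cells carried. It was 7.10 on the Dll1 array and below background on the other arrays. Erythroid and platelet markers summed to 570 in intestinal mast cells, 829 with Dll1, 1300 with TGF-β1 and 1549 in control BMMCs. Without Itga2b, their brightest gene, the sums were 181, 211, 260 and 288 in the same order. Pf4 and Ppbp were below background on all 4 arrays. Of these markers, 2 of the 4 tested were lower in intestinal mast cells and 2 of the 3 tested with Dll1, against control BMMCs. Over all genes tested, 6.73% and 1.78% were lower in those comparisons. Immediate early genes, a sign of handling or stimulation, were higher for 24 of 26 in intestinal mast cells, 13 of 24 with Dll1 and 1 of 23 with TGF-β1, against control BMMCs, where 4.47%, 1.63% and 0.506% of all genes were. The part of these in the regulator levels was not tested.

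The genes nearest to Cd55 and Cd59a in profile were found as the root mean square distance, over the 4 arrays, between log2 values raised to the limit and centred on their own mean, among 12131 genes. Nearest to Cd55 were Arhgap20 (0.13), the adhesion molecule Cadm3 (0.18), the Rac exchange factor Tiam1 (0.25), the membrane glycoprotein Gpm6a (0.26) and Plxdc2 (0.27). Arhgap20 was 5.27 in intestinal mast cells, 9.04 with Dll1, 9.65 with TGF-β1 and 9.89 in control BMMCs. Each of these 5 genes, like Cd55, had its lowest value in intestinal mast cells, which follows from how they were picked.

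Nearest to Cd59a were Slc6a4, the serotonin transporter (0.15), the elastase Mmp12 (0.23), Efcc1 (0.33), the potassium channel subunit Kcnab3 (0.34) and Gp5, platelet glycoprotein V (0.39). Slc6a4 was 5.06 in intestinal mast cells, 5.16 with Dll1, 4.91 with TGF-β1 and 7.59 in control BMMCs. Each of the 5 had its highest value in control BMMCs, which again follows from how they were picked. Cd55 and Cd59a were 1.55 apart, and 1199 genes were as near or nearer to Cd55, Cd59a among them. Counted from Cd59a, Cd55 ranked 11954 of 12131 in nearness, among the farthest genes. Cd46 and Cr1l ranked 1947 and 2800 from Cd59a. The distance is not scaled to a gene's range, so these ranks follow the size of the range as well as its shape. The range was at least 4.62 for Cd55, at least 0.90 for Cd46 and 0.47 for Cr1l. No likeness or unlikeness of pattern is read from these ranks. With 4 arrays such a likeness is a description of these samples.

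**Figure D5:**
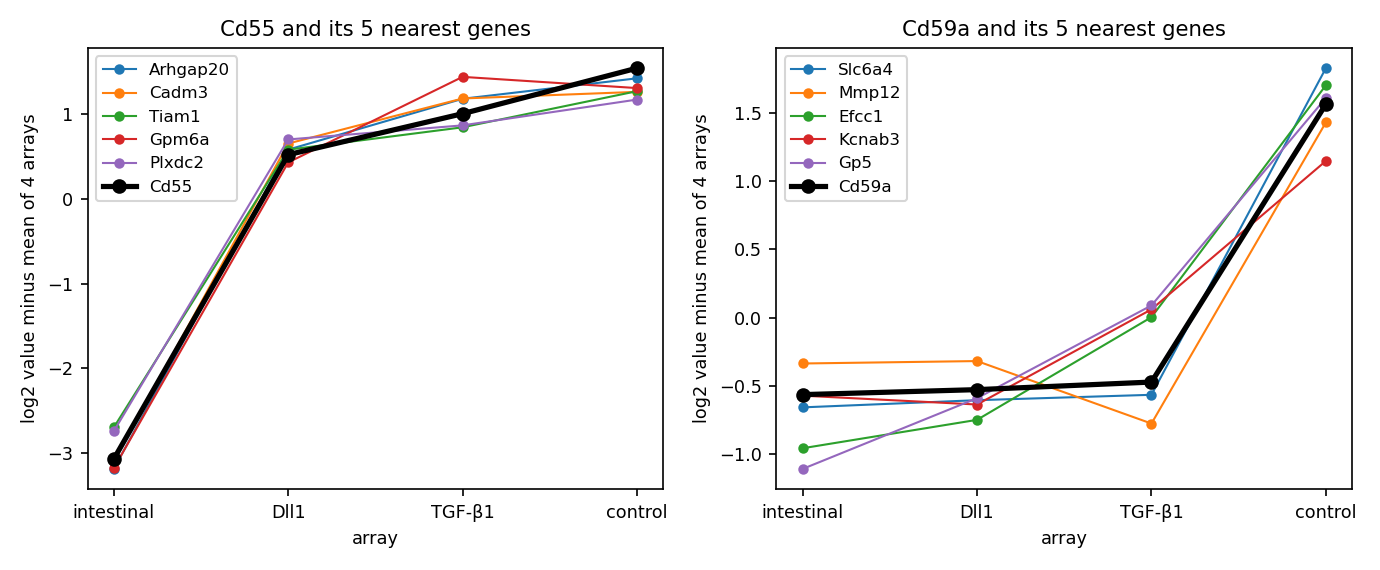
Log2 value, raised to the limit and minus the mean of the 4 arrays (vertical axis), for Cd55 and its 5 nearest genes (left) and Cd59a and its 5 nearest genes (right) on the 4 arrays. Cd55 (black) is low on the intestinal array alone, and Cd59a (black) is high on the control array alone.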

How the data were processed

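The authors deposited log2 values of 33793 probe sets, 1 array for each of 4 samples. Per the labels' protocols, 2 ng of RNA was amplified and labelled for each array. Which software and normalization made them is not given in the sources used here, nor is a build. The 4 arrays held nearly the same distribution (mean gap between sorted values 0.06, largest 0.25), and no further normalization was applied. Values ran between 4.13 and 13.14. Precision is limited by having 1 array a group.

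Symbols came from the platform annotation, which gave 1 symbol for 23521 probe sets, several for 1814 and none for 8458. The probe set with the highest mean was used for each of 22180 genes. Calls were made with Python 3.11.15 and pandas 2.3.3 at 2-fold above the 95th percentile of receptor probe sets, for 6 comparisons, and the rule was tested on simulated data. Named genes were every member, 5 nearest profiles for each member that was called, 4 neighbours on each side in RefSeq order, complement genes above background, and up to 4 anchor genes per list and comparison with control. The members and lists were chosen with earlier results of these data known. Neighbours and promoters came from RefSeq tables of GRCm38.p6.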

Additional observations from a re-analysis of the deposited data

How the results depend on the processing

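Nothing here has a replicate check, and the values below say only how far each result rests on the settings. The alternatives were other background limits, none, array medians subtracted, quantile normalization, averaged probe sets, probe sets with several symbols, an offset of 16 subtracted, and calls at 1.5-fold or 4-fold. Over the 9 settings at 2-fold, including the one reported, Cd55 was called lower in intestinal mast cells than in each BMMC group in all 9, with log2 differences from -5.49 to -3.81 against control, -4.44 to -2.78 against Dll1 and -4.94 to -3.27 against TGF-β1. Cd59a was called lower than in control BMMCs in all 9 in intestinal mast cells (-2.86 to -1.31), with Dll1 (-2.79 to -1.24) and with TGF-β1 (-2.69 to -1.40), and its extremes came from the offset and the 99th percentile limit. At that limit Cd46 gave no value for Dll1 or TGF-β1 against control.

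The number of regulators called for Dll1 minus control was 1 (Cd59a) after quantile normalization and 1 at 4-fold, in place of 2, and 3 (Cd46 too) with the offset and at 1.5-fold. For TGF-β1 minus control it was 2 (Cd59a and Cd46) with the offset and 2 at 1.5-fold, in place of 1. For intestinal minus Dll1 and for intestinal minus TGF-β1 it was 2 (Cd55 lower and Cd46 higher) with the offset and 2 at 1.5-fold, in place of 1. Other complement genes called for Dll1 minus control were 1 with no limit and 1 with the offset, in place of 0, and for Dll1 minus TGF-β1 1 with the 99th percentile limit, in place of 2. Over all genes, the offset gave 837 calls for Dll1 minus TGF-β1 in place of 518, 754 for Dll1 minus control in place of 437 and 295 for TGF-β1 minus control in place of 168. The offset and the limit act on dim genes by construction, and the cause of the other changes was not tested. No paired analysis was possible because each group had 1 array.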
